A study of Drosophila melanogaster with 6 samples.

Results

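Calcium handling genes set the level of free calcium in the cytosol of muscle fibres and neurons, and 8 of them were followed here through RNA tagged in Drosophila larvae. They were chosen by gene name for their role and not for a measured value, although earlier results of these data were known. The genes are SERCA, RyR, Itpr (listed as Itp-r83A), Stim, Cam, Calx, PMCA and Ca-alpha1D. These are 8 of the 14240 genes in the deposited table, and they account for 61 of its 30828 transcripts.

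Calcium enters the cytosol through channels of the plasma membrane and through release channels of the sarcoplasmic or endoplasmic reticulum, the internal store. Pumps and exchangers return it to the store or move it out of the cell, and calmodulin reads its level and passes the signal on to kinases, phosphatases and channels. In muscle this cycle switches contraction on and off, and in sensory neurons it shapes excitability, transmitter release and dendrite growth.

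Multidendritic (md) neurons are sensory neurons of the larval body wall, and EC-tagging marks their newly made RNA without isolating the cells. The fusion enzyme CD:UPRT converts the fed base 5-ethynylcytosine (5EC) into a form that enters RNA, which is then biotinylated and captured on streptavidin beads. The 3 sample types came from L3 larvae, with 2 biological replicates of each that were fed, dissected and processed independently. EC-RNA came from larvae fed 5EC that carried the driver 109(2)80-Gal4 together with UAS-CD:UPRT. The reference (ref-RNA) came from UAS-CD:UPRT larvae without Gal4 that were fed 5-ethynyluridine (5EUd), which all cells take into RNA. The background control (mock-RNA) came from UAS-CD:UPRT larvae fed neither analog. Thus all 3 types carried the UAS transgene, feeding lasted 12 hours at 25 °C, and each RNA sample was pooled from many carcasses. The 109(2)80-Gal4 driver is also active in neurons of the central nervous system, which dissection removed, and the carcass that remained was mainly muscle, epidermis and peripheral neurons.

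Values are TPM, the usual unit of transcript abundance, which is scaled for transcript length and keeps no read depth. The study describes the most mapped reads for ref-RNA, far fewer for EC-RNA and the fewest for mock-RNA, so a value listed at 0 in EC-RNA or mock-RNA rests on fewer reads than one in ref-RNA. Transcripts above 0 numbered 16100 and 17205 in ref-RNA, 6701 and 7335 in EC-RNA, and 3075 and 2441 in mock-RNA. A blank was read as 0 and is reported as listed at 0, since it may be a missed or an absent transcript. In pooled tissue of this kind, fewer cells of a type and less RNA per cell cannot be told apart. The labelled cell type was only partly visible in its markers: the summed TPM of 8 md neuron markers was 160 and 144 in ref-RNA, 2.86 and 155 in EC-RNA and 10.9 and 17.8 in mock-RNA. Of these, ppk26 was listed at 0 in both EC-RNA libraries and ppk reached 0.091 TPM in one of them. All 9 body wall muscle markers were above 0 in every library, with sums of 85749 and 77143 TPM in ref-RNA, 40929 and 41291 TPM in EC-RNA and 16496 and 36117 TPM in mock-RNA. The 5 fat body markers summed to 7167 and 27756 TPM in ref-RNA, 5581 and 8491 TPM in EC-RNA and 69.1 and 267.5 TPM in mock-RNA. The 8 epidermis and cuticle markers summed to 17259 and 14265 TPM in ref-RNA, 26095 and 39135 TPM in EC-RNA and 4212 and 146572 TPM in mock-RNA. The part of muscle, epidermis, fat body or md neuron RNA in any difference below was not tested.

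The first question was how strongly each calcium gene was represented in the tagged RNA of the whole carcass. Transcript values were added up per gene. In ref-RNA the 8 genes spanned from 15.0 TPM for Itpr to 2286 TPM for SERCA, and the replicates of each gene lay within 1.46-fold of each other on TPM + 1. The order was SERCA, Cam, PMCA and RyR, each separated from the next in both libraries, followed by Ca-alpha1D, Stim and Calx, and then Itpr. Within the group of Ca-alpha1D, Stim and Calx the neighbours overlapped, with values between 42.0 and 52.0 TPM. SERCA ranked 57 among all genes in both ref-RNA libraries.

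**Figure D1:**
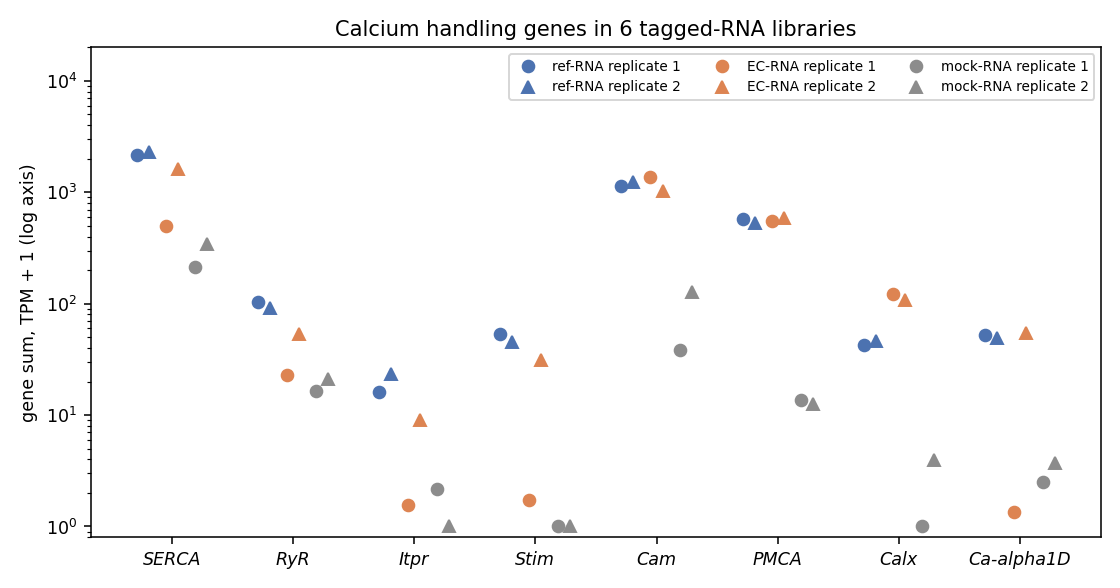
Gene sums of the 8 calcium handling genes in each of the 6 libraries, as TPM + 1 on a log axis; circles are replicate 1 and triangles replicate 2. Cam and PMCA lie at like levels in ref-RNA and EC-RNA, Calx lies higher in EC-RNA, and Stim and Ca-alpha1D fall far apart between the EC-RNA replicates.

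The second question was which of these genes differed between EC-RNA, meant to hold RNA tagged in md neurons, and ref-RNA, tagged in all cells. None of the 8 was called by limma with an adjusted p-value under 0.05 and a change of 2-fold or more, and 0 of 8 had an unadjusted p-value below 0.05, against 59.7% of all genes. Over all 9064 genes tested, 56% were called lower in EC-RNA and 0.199% higher. Genes above 0 numbered 4761 and 5016 in EC-RNA, against 9942 and 10369 in ref-RNA, whereas all 8 were above 0 in both EC-RNA libraries. Genes listed at 0 in both EC-RNA libraries have no spread there, so these shares are not a background of like genes. The shares among genes above 0 in EC-RNA were not computed. The median log2 fold change was -1.41 for the 8 genes, -2.38 for the 38 other calcium genes tested and -2.59 for all genes. The order of these medians depended on the processing. The 8 genes lay at 1.74 and all genes at -1.16 after median-of-ratios scaling, and at -1.19 and -2.76 without mitochondrial transcripts. Median-of-ratios scaling divides each library by a single factor, and it raised the fitted value of all 8 genes. The directions it turned for single genes below are thus not independent of each other. The median of the 8 genes was below that of all genes with a pseudocount of 10 (-1.13 against -0.78), and the medians were nearly the same with no filter on low values (-1.41 against -1.38) and after quantile normalization (-0.59 against -0.57). Both EC-RNA values lay below both ref-RNA values for 4 genes (SERCA, RyR, Itpr and Stim), an arrangement found in 69.1% of all genes, and above them for Calx alone, an arrangement found in 3.16%.

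SERCA encodes the pump that returns calcium to the sarcoplasmic and endoplasmic reticulum and is the calcium pump of muscle relaxation. It lies on chromosome arm 2R, 23925077 to 23935884, minus strand (BDGP6.54). Its gene sum was 2179 and 2286 TPM in ref-RNA, 492 and 1624 TPM in EC-RNA and 214 and 344 TPM in mock-RNA. The 3 sample types did not overlap, with EC-RNA between the others. The log2 fold change of EC-RNA against ref-RNA was -1.32 (SE 0.69, adjusted p = 0.216, limma), and it was 1.86 after median-of-ratios scaling. EC-RNA replicate 1 held 22.1% of the mean ref-RNA level and replicate 2 held 72.7%. The exons of SERCA share 1325 bp with CG2812 on the opposite strand, which was at most 3.87 TPM in any library, and whether the counting used strand is not given in the sources used here.

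On the TPM scale both release channels of the store lay lower in EC-RNA than in ref-RNA in each library, and for both of them median-of-ratios scaling turned the fitted direction. RyR, the ryanodine receptor that opens in muscle when the surface membrane is excited, lies on 2R, 8860364 to 8888097, plus strand. It was at 103 and 91.3 TPM in ref-RNA, 21.8 and 52.1 TPM in EC-RNA and 15.6 and 20.3 TPM in mock-RNA. Its EC-RNA values lay just above the mock-RNA values, with a gap of less than 2 TPM between the nearest libraries. Its log2 fold change against ref-RNA was -1.50 (SE 1.13, adjusted p = 0.382), and 1.62 after median-of-ratios scaling. Itpr, the receptor for inositol trisphosphate and the release channel used by cells that signal through phospholipase C, lies on 3R, 5517117 to 5539411, plus strand. It was the lowest of the 8 genes in ref-RNA, at 15.0 and 22.3 TPM. EC-RNA held 0.564 and 8.06 TPM, and mock-RNA held 1.17 TPM in replicate 1 and was listed at 0 in replicate 2, so that EC-RNA and mock-RNA overlapped. Its log2 fold change against ref-RNA was -2.36 (SE 1.06, adjusted p = 0.162), and it turned to 0.13 after median-of-ratios scaling and 0.87 after quantile normalization.

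Stim, the sensor in the store membrane that opens Orai channels when the store is empty, lies on chromosome X, 15934495 to 15940451, minus strand. It was at 52.0 and 44.2 TPM in ref-RNA, against 0.735 and 30.0 TPM in EC-RNA, and both mock-RNA libraries listed it at 0. Its EC-RNA replicates were 17.9-fold apart on TPM + 1, while its ref-RNA replicates were 1.17-fold apart. The log2 fold change against ref-RNA was -2.74 (SE 1.75, adjusted p = 0.303). It stayed below 0 under all 13 alternatives, between -4.82 and -0.0643. Several of these, namely other filters, a fit of all 3 sample types and a replicate term, can change only its p-value.

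Cam encodes calmodulin, the cytosolic calcium sensor of all cells. It lies on 2R, 12259398 to 12278809, plus strand. It stood at 1134 and 1243 TPM in ref-RNA, against 1360 and 1029 TPM in EC-RNA, so that these sample types overlapped. Mock-RNA was far below both, at 37.6 and 127 TPM. The log2 fold change of EC-RNA against ref-RNA was -0.01 (SE 0.28, adjusted p = 0.989), but it was 3.17 after median-of-ratios scaling and 0.22 without mitochondrial transcripts.

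Of the genes that move calcium out of the cell, PMCA overlapped with ref-RNA and Calx exceeded it. PMCA, the calcium pump of the plasma membrane, lies on chromosome 4, 328193 to 358917, minus strand. It was at 572 and 531 TPM in ref-RNA, 555 and 586 TPM in EC-RNA and 12.7 and 11.5 TPM in mock-RNA. The ref-RNA and EC-RNA values overlapped, and the replicates of each sample type lay within 1.09-fold of each other on TPM + 1. Its log2 fold change against ref-RNA was 0.05 (SE 0.44, adjusted p = 0.941), with 3.22 after median-of-ratios scaling and -0.37 after quantile normalization. PMCA shares 3107 bp of exons with Rnf11 on the opposite strand, which was at 109.9 and 108.7 TPM in ref-RNA and 2.33 and 23.2 TPM in EC-RNA.

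Calx, the sodium/calcium exchanger, lies on 3R, 20978183 to 21015613, plus strand. It was at 42.0 and 45.0 TPM in ref-RNA, against 122 and 106 TPM in EC-RNA, which are 280.2% and 245% of the mean ref-RNA level. Mock-RNA listed it at 0 in replicate 1 and at 2.94 TPM in replicate 2. Calx was the only one of the 8 genes to exceed ref-RNA in each EC-RNA library. The log2 fold change was 1.37 (SE 1.03, adjusted p = 0.383) and did not pass the test. It stayed above 0 under all 13 alternatives run for it, between 1.21 and 4.47. As for Stim, other filters, the fit of all 3 sample types and the replicate term could not change this value.

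Ca-alpha1D, the pore of the L-type voltage-gated channel, carries the calcium current of larval muscle and also acts in neurons. It lies on 2L, 16165831 to 16190540, plus strand. It was at 51.2 and 48.2 TPM in ref-RNA, 0.340 and 53.1 TPM in EC-RNA and 1.51 and 2.74 TPM in mock-RNA. The replicates of EC-RNA were 40.4-fold apart on TPM + 1, one below every mock-RNA value and the other above every ref-RNA value. Its log2 fold change against ref-RNA was -2.57 (SE 2.18, adjusted p = 0.412), -5.24 without EC-RNA replicate 2 and 0.0931 without EC-RNA replicate 1.

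Stim and Ca-alpha1D were thus the 2 of 8 genes whose EC-RNA replicates differed more than 10-fold on TPM + 1, against 20.7% of all genes tested. In ref-RNA 0 of 8 did, against 2.06% of all genes. Of the 8 md neuron markers, 4 were at least 4 TPM lower in EC-RNA replicate 1 than in replicate 2: Piezo, a mechanosensitive channel, at 0.806 and 55.9 TPM, the transcription factors ab at 1.24 and 49.8 TPM and ct at 0.426 and 45.1 TPM, and kn, listed at 0 and at 4.23 TPM. The other 4 were at or near 0 in both, with pain at 0.307 TPM and nompC at 0.0881 TPM in replicate 1 and listed at 0 in replicate 2. SERCA, RyR and Itpr were also lower in replicate 1 than in replicate 2, whereas Cam and Calx were higher in replicate 1. The calls depended on these libraries. Without EC-RNA replicate 2, SERCA, RyR, Itpr, Stim and Ca-alpha1D were called lower and Calx higher, where 62% of all genes were called lower and 7.5% higher. Without replicate 1, Calx was called higher and 0 of 8 lower, where 10.2% of all genes were called higher and 55.7% lower. In each of these fits the remaining EC-RNA library was assumed to vary as the ref-RNA libraries did.

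**Figure D2:**
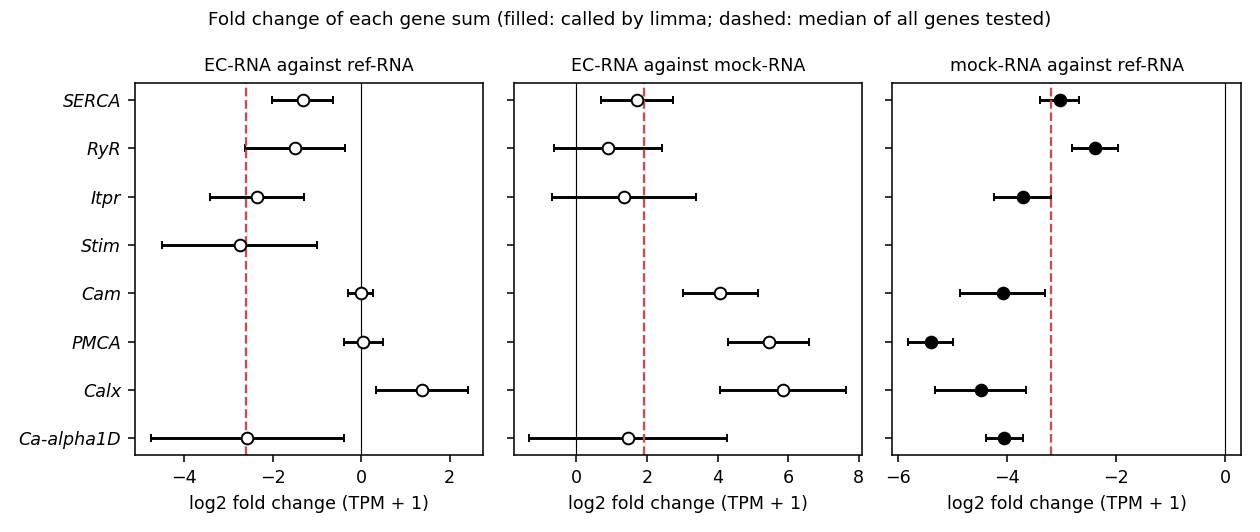
Log2 fold changes of the gene sums on TPM + 1 in the 3 comparisons, with bars of 1 SE from limma; filled points were called, open points were not, and the dashed line is the median of all genes tested. Stim has no point in the comparisons with mock-RNA, where both mock-RNA libraries list it at 0; all points of mock-RNA against ref-RNA are filled.

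The third question was whether the calcium genes held a larger share of EC-RNA than of the RNA that the beads captured without any tag. TPM gives shares of a library, so the amounts of RNA captured were not compared. EC-RNA exceeded mock-RNA in every pair of libraries for 6 of 8 genes, an arrangement found in 33.9% of the 4096 genes tested, and lay below it for 0 of 8, against 8.57%. The exceptions were Itpr and Ca-alpha1D, which overlapped. None of the 8 was called by limma, where 0.342% of all genes were called higher and 0.0244% lower. An unadjusted p-value below 0.05 was found for 3 of 8, against 13.9% of all genes. Those were PMCA, with a log2 fold change of 5.45 (SE 1.14, adjusted p = 0.114), Cam with 4.07 (SE 1.06, adjusted p = 0.153) and Calx with 5.85 (SE 1.79, adjusted p = 0.187). These 3 genes were called when all 3 sample types shared one estimate of the spread, with adjusted p-values of 0.0181, 0.0354 and 0.0426, a fit in which 6.98% of all genes were called higher and 0.977% lower. SERCA had a log2 fold change of 1.72 (SE 1.02, adjusted p = 0.589) and RyR of 0.89 (SE 1.52, adjusted p = 0.689), and after quantile normalization these were -0.0388 and -2.03. Itpr had 1.35 (SE 2.04, adjusted p = 0.659) and Ca-alpha1D 1.47 (SE 2.80, adjusted p = 0.712), with -0.0209 and -0.31 after quantile normalization. The median of all genes was 1.91 in this comparison. Across the table, 14 genes were called higher and 1 lower, and quantile normalization changed this split to 21 higher and 17 lower.

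All 8 genes were called lower in mock-RNA than in ref-RNA, against 67.1% of the 9025 genes tested, and 0.731% were called higher. The 2 mock-RNA values lay below both ref-RNA values for 8 of 8 genes, against 86.3% of all genes. PMCA had a log2 fold change of -5.40 (SE 0.41, adjusted p = 0.00272), Calx of -4.48 (SE 0.83, adjusted p = 0.0207), Cam of -4.08 (SE 0.78, adjusted p = 0.0223) and Ca-alpha1D of -4.05 (SE 0.33, adjusted p = 0.00327). The release channels and the store pump had smaller fitted values, and differences between genes were not tested. Itpr was at -3.71 (SE 0.52, adjusted p = 0.0110), SERCA at -3.04 (SE 0.35, adjusted p = 0.00711) and RyR at -2.38 (SE 0.42, adjusted p = 0.0182). Stim was called with no fold change given, since mock-RNA lists it at 0. The median of all genes was -3.19, and RyR and SERCA lay above it. RyR turned to 0.0258 after median-of-ratios scaling and 0.53 after quantile normalization, and under each of these settings 3 of 8 genes were called lower. Of all 9025 genes, 4804 were called lower after median-of-ratios scaling and 1997 after quantile normalization.

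The table resolves the 8 genes into 61 transcripts, which allows the isoforms in each library to be described. Of the 61, 38 and 49 were above 0 in ref-RNA, 28 and 29 in EC-RNA and 14 and 20 in mock-RNA. In EC-RNA 21 were above 0 in both libraries, 15 in a single library and 25 in neither. Of the 37 tested between EC-RNA and ref-RNA, limma called 2 higher and 10 lower in EC-RNA, where 0.592% and 44.5% of all 14534 transcripts tested were called. The 2 called higher were FBtr0088638 and FBtr0088639 of RyR. They had the same value as each other in each EC-RNA library and are not 2 separate results. Between EC-RNA and mock-RNA limma called 0 of 21, and 0% of all transcripts, while 3 of 21 had an unadjusted p-value below 0.05, against 9.09% of all. Between mock-RNA and ref-RNA it called 17 of 37 lower and 0 higher, where 52.7% of all transcripts were lower and 1.22% higher. Those 17 belonged to every gene but Stim: FBtr0343281, FBtr0072211 and FBtr0072213 of SERCA, FBtr0088640 of RyR, FBtr0344265 of Itpr, FBtr0345018, FBtr0304964 and FBtr0304963 of Cam, FBtr0084000 and FBtr0083998 of Calx, FBtr0300555, FBtr0300557, FBtr0300558 and FBtr0300559 of PMCA, and FBtr0332025, FBtr0332022 and FBtr0332020 of Ca-alpha1D. The leading transcript, the one with the highest TPM, was the same in both ref-RNA libraries for 6 of 8 genes (74.2% of 2695 genes that have at least 2 transcripts and are above 0 in these 4 libraries) and the same in both EC-RNA libraries for 5 of 8 (64.6%). Shares of one gene are bound to each other and were not tested. Exon lengths were read from Ensembl release 115 (BDGP6.54), which is later than the BDGP6 transcripts used by the authors.

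**Figure D3:**
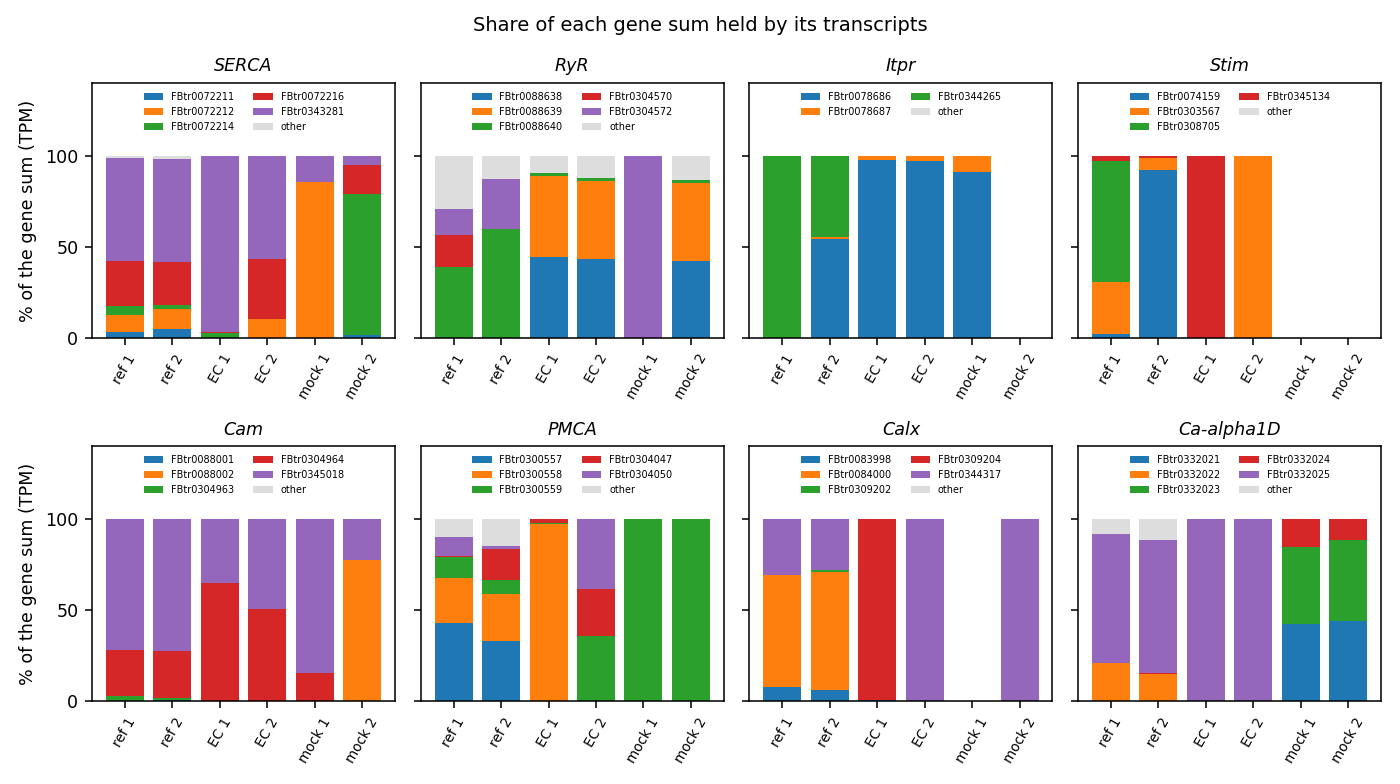
Share of each gene sum, in % of TPM, held by up to 5 transcripts of each gene in the 6 libraries, with the remainder in grey; an empty column is a library that lists the gene at 0. SERCA and Ca-alpha1D keep their leading transcript in ref-RNA and EC-RNA, Cam and RyR lead with another transcript in EC-RNA, and Calx and PMCA lead with a different transcript in each EC-RNA library.

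SERCA led with the same transcript in ref-RNA and EC-RNA, as did Ca-alpha1D, a pattern found in 35.2% of the 2695 genes. FBtr0343281, the SERCA transcript with its own last coding exon of 17 nt, held 56.7% and 56.8% of the gene sum in ref-RNA and 96.4% and 56.8% in EC-RNA. The 7 transcripts that end in the 198 nt coding exon held 43.3% and 43.2% in ref-RNA and 3.65% and 43.2% in EC-RNA. EC-RNA replicate 2 thus matched ref-RNA in both ends and replicate 1 did not. In mock-RNA the balance was the other way round, with 85.8% and 95.0% in the 198 nt end and 14.2% and 4.99% in FBtr0343281. Among the 198 nt ends, FBtr0072216 was at 537 and 533 TPM in ref-RNA, against 3.92 and 532 TPM in EC-RNA. FBtr0072211 was called lower in EC-RNA, at 77.4 and 116.8 TPM in ref-RNA against 0.755 TPM and listed at 0 (adjusted p = 0.00832). FBtr0072213 was called too, at 25.7 and 33.8 TPM in ref-RNA and listed at 0 in both EC-RNA libraries.

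For Ca-alpha1D the leading transcript FBtr0332025 held 70.5% and 73.0% of the gene sum in ref-RNA and 100% and 99.8% in EC-RNA, and it was listed at 0 in mock-RNA. Its level in EC-RNA was 0.340 and 53.0 TPM, so the full share in replicate 1 rests on a very low value. FBtr0332022 held 21.4% and 15.3% in ref-RNA and was called lower, from 10.9 and 7.36 TPM to listed at 0 and 0.0968 TPM (adjusted p = 0.00698). Mock-RNA was spread over FBtr0332021 and FBtr0332023, which had identical values of 0.640 and 1.22 TPM. Only 5 of the 10 transcripts of this gene in the table are in the annotation used here.

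Cam and RyR led with one transcript in both ref-RNA libraries and with another in both EC-RNA libraries, a pattern found in 14.5% of genes. All 5 Cam transcripts hold 447 nt of coding sequence, and their first coding exon, of only 3 nt, lies at either of 2 places. The transcripts with the upstream exon held 74.8% and 74.1% of the gene sum in ref-RNA and 34.8% and 49.2% in EC-RNA. Those with the downstream exon held 25.2% and 25.9% in ref-RNA and 65.2% and 50.8% in EC-RNA, with no overlap between the sample types. The mock-RNA libraries disagreed, with 15.7% and 77.7% in the downstream form. The upstream transcript FBtr0345018 went from 815 and 900 TPM in ref-RNA to 474 and 506 TPM in EC-RNA, a log2 fold change of -0.81 (SE 0.46, adjusted p = 0.295). The downstream transcript FBtr0304964 was at 285 and 322 TPM in ref-RNA, against 886 and 522 TPM in EC-RNA, a log2 fold change of 1.16 (SE 0.63, adjusted p = 0.268). Neither transcript passed the test, so the different proportions of the 2 forms behind the like gene sums of Cam are a description only. FBtr0345018 is 1435 nt long and FBtr0304964 3406 nt, so they also differ outside the coding sequence. FBtr0304963, a minor upstream transcript at 33.4 and 8.69 TPM in ref-RNA, was called lower, being listed at 0 and at 0.182 TPM in EC-RNA (adjusted p = 0.0275).

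RyR transcripts differ by alternative forms of several coding exons and by short optional exons. In ref-RNA the leading transcript was FBtr0088640, at 40.2 and 54.7 TPM or 39.0% and 59.9% of the gene sum. EC-RNA held 0.255 and 0.618 TPM of it, and it was called lower, with a log2 fold change of -5.07 (SE 0.47, adjusted p = 0.00723). EC-RNA was led by FBtr0088638 and FBtr0088639, which had the same value as each other in each library, 9.72 and 22.5 TPM. In ref-RNA these were listed at 0 in replicate 1 and were at 0.0071 and 0.0003 TPM in replicate 2. Both were called higher, with log2 fold changes of 3.98 and 3.99 (SE 0.50 each, adjusted p = 0.0114 and 0.0113). With ref-RNA at or near 0, the size of these changes depends on the pseudocount of 1. Both passed the filter on the mean TPM only through EC-RNA, so the calls add no support beyond the values. In mock-RNA each was listed at 0 in replicate 1 and was at 8.64 TPM in replicate 2, close to the lower EC-RNA value. Transcripts with the 195 nt form of one exon held 83.8% and 87.4% of the RyR sum in ref-RNA and 1.24% and 1.32% in EC-RNA, while its 153 nt form, listed at 0 and at 12.6% in ref-RNA, held 89.4% in each EC-RNA library. Mock-RNA replicate 2 held 87.1% in the 153 nt form and replicate 1 held 100% in the 195 nt form. The 171 nt form of this exon was at 16.2% and 0.0185% in ref-RNA and 9.37% and 9.25% in EC-RNA. An exon of 100 nt also has 2 copies, but FBtr0088638 and FBtr0088639 carry opposite ones, and their equal values leave the copy used in EC-RNA unresolved. FBtr0304572 was also called lower in EC-RNA, from 14.9 and 25.0 TPM to 0.0016 and 0.004 TPM (adjusted p = 0.0068), and it held the whole RyR sum of mock-RNA replicate 1.

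PMCA and Calx had like gene sums in the EC-RNA replicates but different transcripts behind them, a pattern in leading transcripts found in 24.5% of genes. PMCA transcripts end in 3 alternative last coding exons, of 219, 435 and 30 nt, and in mammals the alternative C-terminal tails of this pump differ in how they bind calmodulin. In ref-RNA these ends held 44.9% and 51.3%, 43.7% and 41.1%, and 11.5% and 7.61% of the gene sum. EC-RNA replicate 1 had 97.3% in the 435 nt end, and replicate 2 had 25.9%, 38.1% and 36.0% in the 219, 435 and 30 nt ends. In mock-RNA the 30 nt end held 100% in both libraries, at 12.7 and 11.5 TPM. By transcript, EC-RNA replicate 1 was led by FBtr0300558 at 540.2 TPM, which replicate 2 listed at 0. Replicate 2 was led by FBtr0304050 at 223 TPM, FBtr0300559 at 211 TPM and FBtr0304047 at 152 TPM, of which replicate 1 held 0, 3.49 and 11.3 TPM. FBtr0300557, the leading transcript of ref-RNA at 246 and 177 TPM, was called lower, at 0.0001 and 0.0006 TPM in EC-RNA (adjusted p = 0.0067). FBtr0300555 was called as well, at 45.3 and 75.7 TPM in ref-RNA and listed at 0 in both EC-RNA libraries.

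Calx was led in ref-RNA by FBtr0084000, with 61.1% and 64.6% of the gene sum. This transcript was at 25.7 and 29.1 TPM in ref-RNA, against 0.137 TPM and listed at 0 in EC-RNA, and it was called lower (adjusted p = 0.0067), although the gene sum of Calx was higher in both EC-RNA libraries. EC-RNA replicate 1 held 99.2% in FBtr0309204, at 120.9 TPM, which carries an additional coding exon of 30 nt and was listed at 0 in every other library. EC-RNA replicate 2 held 100% in FBtr0344317, at 106 TPM. Its coding sequence is 1971 nt against 2850 nt for FBtr0084000, and it ends early in its own last coding exon of 23 nt. FBtr0344317 was at 12.9 and 12.6 TPM in ref-RNA, listed at 0 in EC-RNA replicate 1, and was the only Calx transcript in mock-RNA.

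Stim and Itpr did not keep a leading transcript even between the ref-RNA replicates. Stim was led by FBtr0308705 with 66.3% in ref-RNA replicate 1 and by FBtr0074159 with 92.5% in replicate 2, and their gene sums were within 1.17-fold on TPM + 1. FBtr0308705 and FBtr0345134 hold a short coding sequence of 351 nt, which together made up 69.0% and 0.886% of the Stim sum in ref-RNA. EC-RNA replicate 1 listed only FBtr0345134, at 0.735 TPM, and replicate 2 only FBtr0303567, at 30.0 TPM. Itpr was led by FBtr0344265 with 100% in ref-RNA replicate 1, and by FBtr0078686 with 54.2% in replicate 2. FBtr0078686 held 97.5% and 97.4% in EC-RNA, and these transcripts have the same coding sequence. FBtr0344265 was called lower in EC-RNA, from 15.0 and 9.89 TPM to listed at 0 in both libraries.

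**Figure D4:**
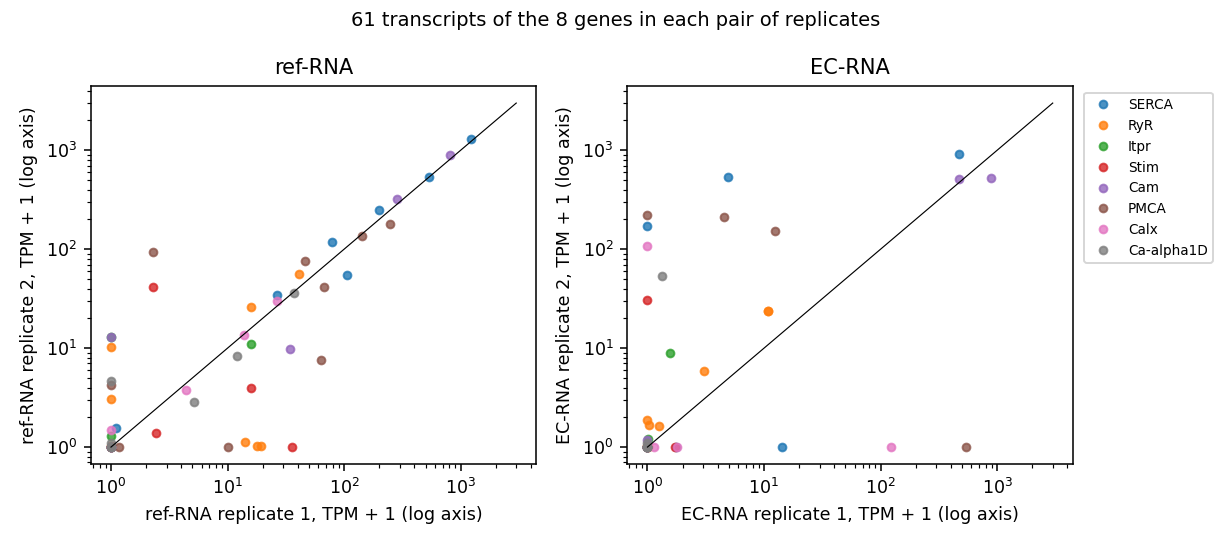
Each of the 61 transcripts in replicate 1 (x axis) and replicate 2 (y axis) of ref-RNA and of EC-RNA, as TPM + 1 on log axes, coloured by gene; the line marks equal values. Most abundant ref-RNA transcripts lie near the line, and in EC-RNA several transcripts of SERCA, PMCA, Calx, Stim and Ca-alpha1D lie on or near an axis because one library lists them at 0 or nearly so.

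Other genes of calcium signalling were described from a list of 41 symbols in 7 roles, of which 40 were found in the table. In EC-RNA against ref-RNA 38 were tested, and 16 were called lower and 1 higher, against 56% and 0.199% of all genes. Both EC-RNA values lay below both ref-RNA values for 22 of 38, against 69.1% of all genes, and above them for 4 of 38, against 3.16%. Among plasma membrane channels and their subunits 3 of 6 were called lower, among store proteins 1 of 7, among mitochondrial uptake genes 2 of 4, among buffers and sensors 4 of 5, among calmodulin targets 2 of 10 and among phospholipases C 2 of 3. Among other pumps and exchangers 2 of 3 were called lower and 1 higher.

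The gene called higher was Nckx30C, a potassium-dependent sodium/calcium exchanger. Another exchanger of the same role, zyd, was called lower, from 3.36 and 6.02 TPM in ref-RNA to 0.310 TPM and listed at 0 in EC-RNA (log2 fold change -2.27, SE 0.37, adjusted p = 0.0135). Nckx30C was at 3.38 and 2.00 TPM in ref-RNA, against 43.0 and 31.5 TPM in EC-RNA, a log2 fold change of 3.38 (SE 0.55, adjusted p = 0.0140). Mock-RNA held 1.39 and 6386 TPM, so EC-RNA lay between widely separated background values. This call was lost with a pseudocount of 0.1, after quantile normalization, with all 3 sample types in one fit, with the replicate block and without either ref-RNA library. The calls with the smallest p-values among those lower were norpA, SPoCk and Frq2 (adjusted p = 0.00286 each). All 3 were at or near 0 in EC-RNA and passed the filter only through ref-RNA. Values at this floor have little spread on log2(TPM + 1), with SEs of 0.22, 0.23 and 0.25. Their small p-values thus depend in part on the floor. The phospholipase C norpA, which makes inositol trisphosphate, was at 23.4 and 19.7 TPM in ref-RNA and listed at 0 in both EC-RNA libraries. SPoCk, a calcium pump of the secretory pathway, went from 22.7 and 25.7 TPM to 0.162 and 0.0595 TPM, and Frq2, a neuronal calcium sensor of the frequenin family, from 30.5 and 26.2 TPM to 0.146 TPM and listed at 0.

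The gene with the highest mean in ref-RNA was named for each role. Among store proteins this was sclB, which encodes sarcolamban B, a small peptide that binds and restrains the SERCA pump. It was at 3803 and 2998 TPM in ref-RNA, 1797 and 3147 TPM in EC-RNA and 70.4 TPM and listed at 0 in mock-RNA. Its log2 fold change in EC-RNA against ref-RNA was -0.51 (SE 0.35, adjusted p = 0.342), and the sample types overlapped. CaMKII, the kinase switched on by calcium-bound calmodulin, was at 805 and 633 TPM in ref-RNA, 647 and 592 TPM in EC-RNA and 7.06 and 12.8 TPM in mock-RNA. Its log2 fold change in EC-RNA against ref-RNA was -0.21 (SE 0.41, adjusted p = 0.728). MCU, the pore of the mitochondrial calcium uniporter, was at 179.6 and 149 TPM in ref-RNA, at 0.943 and 423 TPM in EC-RNA and listed at 0 in mock-RNA. Its EC-RNA replicates stood on either side of ref-RNA, as those of Ca-alpha1D did. Ca-Ma2d, named as an alpha2/delta subunit of calcium channels, was at 66.1 and 44.7 TPM in ref-RNA and 0.356 and 19.3 TPM in EC-RNA. Nca, a neurocalcin of the neuronal calcium sensor family, was at 92.3 and 129 TPM in ref-RNA and was called lower, at 1.60 and 0.294 TPM in EC-RNA (adjusted p = 0.00669).

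**Figure D5:**
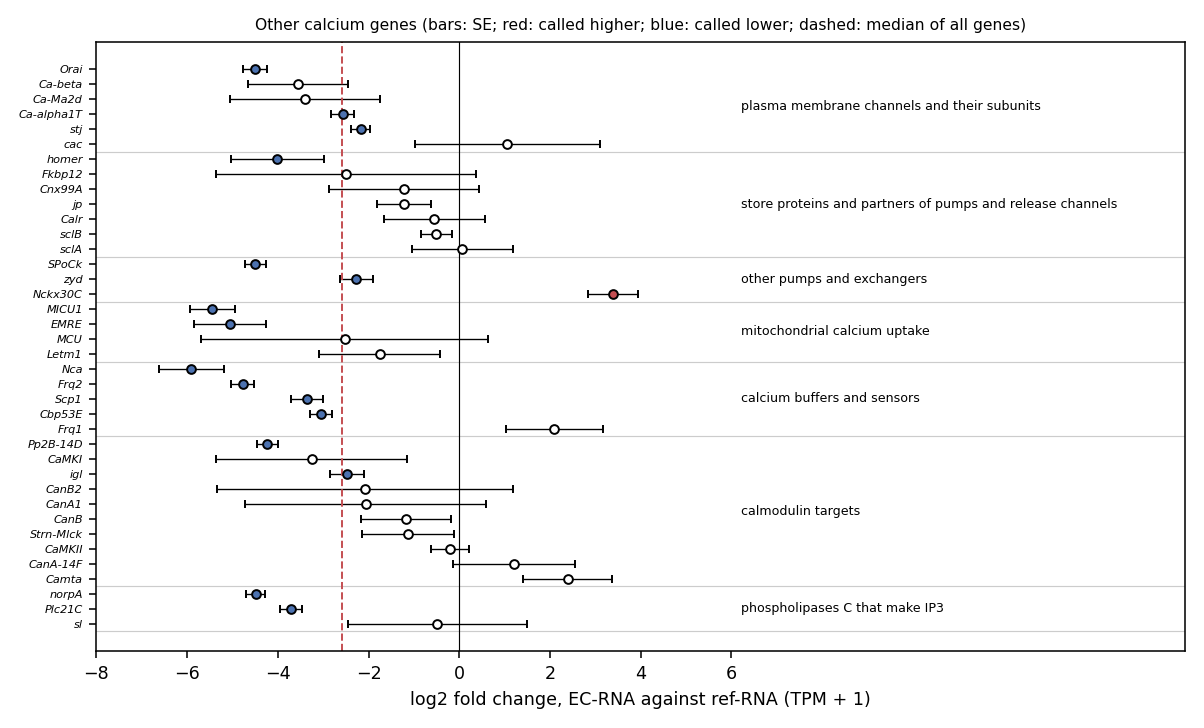
Log2 fold change on TPM + 1 of EC-RNA against ref-RNA for the 38 other calcium genes tested, grouped by role, with bars of 1 SE from limma; red points were called higher, blue points lower, and the dashed line is the median of all genes. The only red point is Nckx30C, and 16 points are blue.

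Against mock-RNA 27 of the other calcium genes were tested and 0 were called by limma, while 5 had an unadjusted p-value below 0.05, against 13.9% of all genes. EC-RNA exceeded mock-RNA in every pair of libraries for 12 of 27, against 33.9% of all genes, and lay below it for 3 of 27, against 8.57%. In mock-RNA against ref-RNA 22 of 37 were called lower and 2 higher, against 67.1% and 0.731% of all genes. The 2 called higher were stj, an auxiliary subunit of voltage-gated calcium channels, and CanA-14F, a catalytic subunit of the phosphatase calcineurin. The former was at 5.05 and 4.34 TPM in ref-RNA, 89.4 and 48.8 TPM in mock-RNA and 0.326 and 0.191 TPM in EC-RNA. CanA-14F was at 42.7 and 40.3 TPM in ref-RNA, 1116 and 317 TPM in mock-RNA and 212 and 44.4 TPM in EC-RNA. Among those lower, Orai, the channel that Stim opens, Ca-beta, the beta subunit of voltage-gated channels, and EMRE, a regulator of the uniporter, were listed at 0 in both mock-RNA libraries. Orai was at 26.9 and 25.0 TPM in ref-RNA, against 0.331 and 0.0609 TPM in EC-RNA, where it was called lower (adjusted p = 0.00286). Its partner Stim reached 30.0 TPM in EC-RNA replicate 2, in which Orai stayed near 0.

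The genes with levels most like each of the 8 were found by Euclidean distance on log2(TPM + 1) over the 6 libraries, among the 8532 genes that averaged 1 TPM or more. SERCA lay nearest to sesB, a mitochondrial ADP/ATP translocase (distance 1.34), and to Tm2, a muscle tropomyosin (1.55). PMCA lay nearest to tmod, which caps actin filaments (0.75), and to CaMKII (0.98). Stim lay nearest to Alg-2 (0.34) and to Vha68-1, a subunit of the vacuolar proton pump (0.53). Ca-alpha1D lay nearest to Bruce, an inhibitor of apoptosis family protein (1.06), and to Piezo (1.40). Calx lay nearest to Cirl, a latrophilin receptor of mechanosensory neurons (1.09), and to CG46319 (1.37). Cirl was at 60.4 and 49.7 TPM in ref-RNA, 93.6 and 101.2 TPM in EC-RNA, and listed at 0 and at 6.18 TPM in mock-RNA. RyR lay nearest to CG30069 (1.44) and alpha-Spec, a spectrin of the membrane skeleton (1.50), Cam to Oda (1.37) and ImpL3, the lactate dehydrogenase (1.45), and Itpr to CG2247 and Cyp6d4 (1.17 each). The distance is a description of these 6 libraries.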

How the data were processed

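Tagged RNA of larval carcasses was sequenced for 3 sample types with 2 replicates each. The authors trimmed reads with Trimmomatic, pseudo-aligned them to BDGP6 transcripts with kallisto and deposited TPM per transcript. Of the table's cells 132111 are blank, and they were read as 0. TPM keeps no depth, so no counting error can be given and only the spread between replicates measures precision.

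TPM was summed per gene and tested as log2(TPM + 1) with limma 3.58.1 in R 4.3.3 (moderated test, trended spread, two-sided, Benjamini-Hochberg over all features that averaged 1 TPM or more over the 4 libraries of a comparison). Calls needed an adjusted p-value below 0.05 and at least 2-fold. Fold changes on this scale understate low genes. Each fit held only the sample types compared. The fit of EC-RNA against ref-RNA gene sums was also run on simulated data with 200 changed genes. All simulated libraries took their spread from the ref-RNA replicates, where 2.06% of genes lay more than 10-fold apart, against 20.7% in EC-RNA. The simulation therefore cannot show how the calls behave at the spread of EC-RNA or mock-RNA. An exact permutation test of 2 against 2 libraries cannot go below p = 0.333 and was not used. Python 3.11.15, pandas 2.3.3, NumPy 2.4.6 and Matplotlib 3.10.9 served for the rest.

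Members and lists were chosen with earlier results of these data known. The text names the 8 genes, each of their transcripts with at least 20% of the mean ref-RNA share or of an EC-RNA library or called, at most 3 other calcium genes per direction by p-value, the highest of each role and the 2 nearest genes. Other names (zyd, the md neuron markers, Rnf11, CG2812 and Cirl values, transcripts leading mock-RNA or below the share) were chosen after their values were seen. Leading transcripts over all genes were counted after seeing the data. Alternatives were other filters, pseudocounts of 0.1 and 10, quantile and median-of-ratios scaling, rescaling without mitochondrial transcripts, a shared fit, a replicate term, single transcripts, and leaving out each library. Marker lists for neurons, epidermis, glia and hemocytes were also summed. Neuron markers reached 287 and 254 TPM in ref-RNA, 211 and 649 TPM in EC-RNA and 238 and 165 TPM in mock-RNA. Epidermis and cuticle markers were at 17259 and 14265, 26095 and 39135, and 4212 and 146572 TPM, glia markers at 166 and 163, 182 and 95.4, and 35.5 and 52.3 TPM, and hemocyte markers at 168 and 180.2, 93.7 and 141, and 27.8 and 14.6 TPM in the same order.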

Additional observations from a re-analysis of the deposited data

How the results depend on the processing

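Over the 13 alternatives the log2 fold changes of the 8 genes in EC-RNA against ref-RNA kept their direction and their side of the threshold in 84 of 104 values, in EC-RNA against mock-RNA in 91 of 103 and in mock-RNA against ref-RNA in 77 of 104. Other filters, the shared fit and the replicate term cannot change a log2 fold change, so under these only the call could change. For the values that changed, the cause was not tested unless stated.

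In EC-RNA against ref-RNA, 0 of the 8 genes were called. With no filter on low values 1 was called higher (Calx, adjusted p = 0.0449, limma), as were 41 of all 14240 genes. After median-of-ratios scaling 3 were called higher (SERCA, Cam and PMCA), as were 113 of all 9064 genes. Leaving out a library gave 0 to 1 higher and 0 to 5 lower. By single transcripts, 1 gene had a transcript called higher and 7 had one called lower. The 8 genes have 3 to 11 transcripts each, and the share of all genes with at least 1 transcript called was not computed. These counts are therefore not read as a result about the 8 genes. Reversed values were Itpr at 0.87 and PMCA at -0.37 (quantile), SERCA at 1.86, RyR at 1.62, Itpr at 0.13 and Cam at 3.17 (median-of-ratios), and Cam at 0.22 (without mitochondrial transcripts). Without 1 library, Cam ranged from -0.21 to 0.20, PMCA from -0.00525 to 0.10 and Ca-alpha1D from -5.24 to 0.0931, with the sign turned for Ca-alpha1D without EC-RNA replicate 1, for Cam without EC-RNA replicate 2 or ref-RNA replicate 2 and for PMCA without ref-RNA replicate 2. Of the other calcium genes 1 was called higher and 16 lower. Higher calls became 0 with a pseudocount of 0.1, quantile normalization or one fit of all 3 sample types, 3 with median-of-ratios scaling and 0 to 8 without a library, and lower calls 0 (quantile), 5 (median-of-ratios) and 11 to 26 (without a library).

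In EC-RNA against mock-RNA, 0 of the 8 genes were called, 3 were called higher in one fit of all 3 sample types, and 0 to 2 without a library. Of all 4096 genes, the fit of all 3 sample types called 286 higher. Reversed values were SERCA at -0.0388, RyR at -2.03, Itpr at -0.0209 and Ca-alpha1D at -0.31 (quantile). Without 1 library Ca-alpha1D ranged from -1.20 (without EC-RNA replicate 2) to 4.14. Of the other calcium genes, 1 was called higher with no filter, 2 higher and 1 lower in the shared fit and 0 to 7 higher without a library. In mock-RNA against ref-RNA, 8 of 8 called lower became 3 with quantile or median-of-ratios scaling, 6 in the shared fit or with a pseudocount of 0.1, and 2 to 8 without a library. The 2 fits without a ref-RNA library kept Stim and PMCA. Of all 9025 genes, 1997 were called lower with quantile normalization and 4804 with median-of-ratios scaling. The shared fit called 5215 of them lower, and a pseudocount of 0.1 called 5969. RyR reversed to 0.53 (quantile) and 0.0258 (median-of-ratios). Higher calls among other calcium genes, 2 at first, became 1 with no filter or in the shared fit, 4 with quantile normalization and 0 to 4 without a library, and lower calls, 22 at first, became 10 with quantile normalization and 13 to 30 without a library.

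No pairing of the libraries by replicate number was seen: the correlation of same-numbered deviations was 0.00325, 0.0108 and 0.00127 in the 3 comparisons. A correlation near 0 cannot exclude a pairing, since the wide spread between EC-RNA or mock-RNA replicates could hide it. With the replicate block, 0 other calcium genes were called higher in EC-RNA against ref-RNA. In EC-RNA against mock-RNA the block called 1 of the 8 genes (PMCA, adjusted p = 0.0193, limma) and 3 other calcium genes higher, with 157 of all 4096 genes. In mock-RNA against ref-RNA the block left 7 of 8 lower, without RyR (adjusted p = 0.115, limma), and 1 other calcium gene higher. Of all 9025 genes it called 5675 lower and 53 higher. Over all genes of EC-RNA against ref-RNA, 18 higher and 5080 lower became between 0 and 113 higher and between 0 and 5277 lower under the alternatives that kept every library, and 1 to 922 higher and 4892 to 5622 lower without a library. For EC-RNA against mock-RNA, 14 higher and 1 lower became 0 to 286 and 0 to 40, or 0 to 1080 and 0 to 68 without a library. For mock-RNA against ref-RNA, 66 higher and 6054 lower became 52 to 204 and 1997 to 6382, or 11 to 191 and 5846 to 6402 without a library. With 2 libraries a group and no read counts, single values have no counting error, and a lone library was assumed to vary like the other group.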
